A study of Mus musculus with 3 samples.

Results

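The genes described here were the chemokines, their receptors and the atypical chemokine receptors of mouse liver nuclei. They were chosen by symbol: every gene whose symbol is Ccl, Cxcl, Ccr or Cxcr followed by a number, with any letter after it, together with Cx3cl1, Cx3cr1, Xcl1, Xcr1, Ackr1 to Ackr4 and Ccrl2. This rule found 67 gene identifiers with 61 symbols among the 32285 identifiers of the count matrices, namely 44 ligands, 18 receptors and 5 atypical receptors. Ccr1l1 lay outside the rule. At least 1 transcript of 57 of the identifiers was counted, and 33 had at least 50 counts in all, of which 17 were ligands, 12 receptors and 4 atypical receptors (Ackr2, Ackr3, Ackr4 and Ccrl2).

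The counts came from single-nuclei RNA sequencing (sNuc-Seq) of frozen liver, with 1 library per mouse, and each transcript was counted by its unique molecular identifier (UMI). One library came from a normal male C57BL/6 J mouse on a normal diet (ND). The other 2 came from male C57BL/6 J mice of the STZ-HFHC model of fibrosis in metabolic dysfunction-associated steatohepatitis (MASH). In this model 0.2 mg of streptozocin, which destroys pancreatic islets, is injected under the skin at 3 days of age and a high-fat and high-cholesterol diet is fed from 4 weeks of age. The age at which these livers were taken was not given in the sources used here. With 1 ND mouse, the spread between ND mice is unknown, so levels are given with counting intervals and compared by a rule of size, and the animal, the library and the condition cannot be told apart.

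Chemokines are small secreted proteins that guide cells along their gradients by binding receptors coupled to G proteins, and they are grouped by the spacing of their first cysteines into the CC, CXC, CX3C and XC families. Atypical receptors bind the same ligands and remove or transport them without coupling to G proteins. In liver they are known for bringing monocytes, neutrophils and lymphocytes into injured tissue, with the pair of Ccl2 and its receptor Ccr2 the best studied in steatohepatitis and fibrosis.

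The promoters of 4 inducible ligands that had more UMIs in both STZ-HFHC libraries are printed because they share a motif. They were picked for both traits, so they do not link the motif to the higher counts. Each sequence is the 250 bases before the RefSeq transcription start (GRCm38.p6), 5′ to 3′ on the strand of the gene. Capitals mark matches, on either strand, to an NF-kB site written as 3 G, any 2 bases, 2 T, any base and 2 C. In Cxcl10 they also mark the core of the interferon-stimulated response element, GAAA, any 2 bases and GAAA, which is the match nearer the 5′ end. Cxcl1 lay at chr5:90890995-90891244 on the plus strand, Cxcl2 at chr5:90903649-90903898 on the plus strand, Cxcl9 at chr5:92328080-92328329 on the minus strand and Cxcl10 at chr5:92348890-92349139 on the minus strand.
Cxcl1: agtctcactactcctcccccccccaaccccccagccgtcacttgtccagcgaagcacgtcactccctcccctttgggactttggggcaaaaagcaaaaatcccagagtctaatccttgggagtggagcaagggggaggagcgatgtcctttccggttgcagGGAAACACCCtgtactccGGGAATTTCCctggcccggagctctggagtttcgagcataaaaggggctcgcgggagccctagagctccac
Cxcl2: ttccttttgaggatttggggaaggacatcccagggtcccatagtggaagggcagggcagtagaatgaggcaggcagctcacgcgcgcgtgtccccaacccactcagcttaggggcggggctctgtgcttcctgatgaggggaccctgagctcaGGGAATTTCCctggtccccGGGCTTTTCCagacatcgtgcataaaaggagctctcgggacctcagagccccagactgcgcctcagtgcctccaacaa
Cxcl9: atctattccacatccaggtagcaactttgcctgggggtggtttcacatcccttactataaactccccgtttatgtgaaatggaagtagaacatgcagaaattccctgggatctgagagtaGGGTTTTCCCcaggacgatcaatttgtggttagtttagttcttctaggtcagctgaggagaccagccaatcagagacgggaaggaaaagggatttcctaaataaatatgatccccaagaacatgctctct
Cxcl10: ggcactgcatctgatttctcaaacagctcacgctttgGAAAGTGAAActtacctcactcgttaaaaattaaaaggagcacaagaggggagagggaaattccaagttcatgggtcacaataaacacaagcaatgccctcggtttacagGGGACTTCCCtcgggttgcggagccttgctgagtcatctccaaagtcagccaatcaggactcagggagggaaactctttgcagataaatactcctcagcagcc
Of the 33 members with at least 50 UMIs, 24 had promoters in the table, 30 promoters in all. The NF-kB letters were found in 7 of those 30, those of Ccl9, Ccr6, Ccrl2, Cxcl1, Cxcl2, Cxcl9 and Cxcl10, and in 4.11% of all 32851 promoters of this length. By the rule of size given below, Ccl9, Ccr6 and Ccrl2 were not called over all nuclei. The promoters of Ackr3, Ccl3, Ccl6, Ccr1, Ccr2, Cxcr2 and Cxcr4 held no match, though these members were called higher over all nuclei. Ccl2 had no promoter among the 30. Cxcl1 and Cxcl2 each held 2 matches within 97 bases of the start. The interferon element was found in 1 member promoter, that of Cxcl10, and in 2.98% of all promoters. These matches describe the letters of the window and no binding was measured.

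After the quality limits, the ND library kept 8494 nuclei with 42715797 UMIs, the STZ-HFHC 1 library 8921 with 44350401 and the STZ-HFHC 2 library 10921 with 55632923, and 29 to 32 barcode sequences were shared between libraries. Nuclei fell into 22 clusters, from which 9 classes were named by marker genes, and 14.0% to 18.8% of the nuclei of a library stayed unnamed. Values are given in the order ND, STZ-HFHC 1, STZ-HFHC 2 from here on. The share of macrophage-like nuclei was 2.83%, 14.9% and 8.35%, and that of monocyte-like nuclei was 0.494%, 7.63% and 4.49%. ND and STZ-HFHC nuclei of the hepatocyte-like, endothelial-like, stellate-like and macrophage-like classes lay mostly in separate clusters. The 10 hepatocyte markers summed to 19482, 14572 and 15637 UMIs per 1000000 UMIs (CPM) in hepatocyte-like nuclei. In the other 8 classes they summed to 6283 to 18336 CPM, so RNA of hepatocytes was counted in every class. In each of these 8 classes the sum was highest in ND. It was 15958, 7079 and 8988 CPM in stellate-like and 18143, 10965 and 14318 CPM in T or NK cell-like nuclei. Hepatocyte RNA within a class thus differed between ND and STZ-HFHC, and its part in the values and ratios below was not tested.

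Together the members came to 536.6, 362.5 and 352.0 CPM. Most of these counts belonged to Ccl25, Ackr4 and Cxcl12, which held 73.0% of the 58586 member UMIs. A member was called higher or lower where both STZ-HFHC libraries differed from ND by at least 2-fold in the same direction and at least 50 UMIs were counted. Over all nuclei, 18 of 33 members were higher, against 13.6% of all 16829 genes with as many UMIs, and 3 of 33 were lower, against 4.74%. The median log2 ratio of the members was 1.64, against 0.18 for all genes. All intervals below are exact 95% intervals that cover counting error only.

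**Figure D1:**
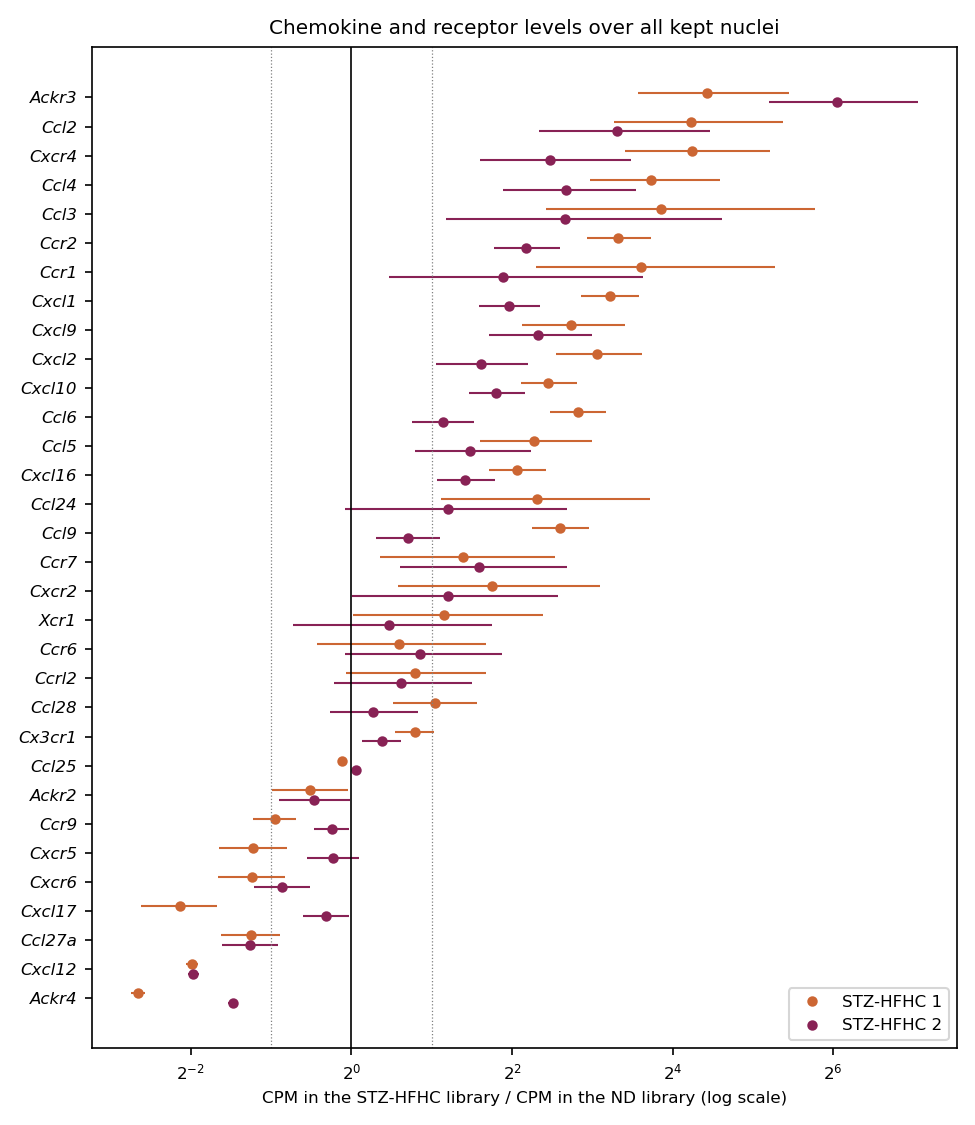
CPM of the members reported here with at least 50 UMIs in STZ-HFHC 1 and STZ-HFHC 2 divided by its CPM in ND, over all kept nuclei, on a log axis. Points are ratios, lines are 95% counting intervals and dotted lines mark 2-fold. Ackr3 stands at the top with 21.5-fold and 66.0-fold, and Cxcl12 and Ackr4 stand at the bottom.

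The edgeR quasi-likelihood test of the same sums, 1 library against 2, called no gene at an adjusted p under 0.05. The lowest adjusted p was 0.0715, which was that of Cxcl12, and 13 members were higher and 4 lower at an unadjusted p under 0.05, as were 4106 genes in all. In counts simulated with the sizes of these libraries and an assumed spread, edgeR recovered 87% of genes changed 4-fold and 0% of those changed 2-fold. When the class makeup was held at its mean over the 3 libraries, an alternative added after seeing the data, 16 members were higher, among them 15 of the 18, and the same 3 were lower. Ccr1, Ccl6 and Cxcr2 were no longer called and Ccr6 was added. The share of all genes called with that makeup was not computed.

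Ccl2 (ENSMUSG00000035385, chr11:82035571-82037453, plus strand, GRCm38) is the ligand that draws Ccr2-bearing monocytes. Its sums over all nuclei were 9, 175 and 116 UMIs. Both STZ-HFHC libraries were higher than ND, by 18.7-fold (95% counting interval 9.64 to 41.6) and 9.90-fold (5.04 to 22.2). Its highest level in every library was in stellate-like nuclei, a class that includes fibroblasts, at 0.854, 18.4 and 12.8 CPM (6, 36 and 51 UMIs). In that class the ratios were 21.6-fold and 14.9-fold. Hepatocyte-like nuclei, the largest class, held 1, 70 and 27 of the Ccl2 UMIs, which came to 0.0526, 2.63 and 0.764 CPM. In stellate-like nuclei thinned to 1000 UMIs, 0.181%, 1.66% and 0.789% of nuclei had a Ccl2 UMI, where the hepatocyte-like shares were 0%, 0.164% and 0.0417%, and without thinning the stellate-like shares were 0.336%, 4.10% and 2.06% and the hepatocyte-like ones 0.0255%, 1.58% and 0.466%. Thinning left out 86, 31 and 47 stellate-like and 175, 111 and 148 hepatocyte-like nuclei, and before it the median UMI counts of the classes were 4716, 2222 and 2241 and 4157, 7577 and 6387. The 51 stellate-like UMIs of STZ-HFHC 2 lay in 27 nuclei, with at most 7 in 1 nucleus. Gm17268, a gene on the opposite strand that overlaps Ccl2 by 1883 bases, had 1.17, 3.86 and 5.34 CPM over all nuclei.

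A leading class was defined for a member whose CPM was highest in the same class, and at least 4-fold over all other nuclei, in every library. Of 33 members, 11 had one, against 7.64% of all genes tested. Among them, Ccl2 led in stellate-like nuclei and Ccl5 in T or NK cell-like nuclei. Ccr2, Cx3cr1, Cxcr4, Ccr1 and Xcr1 led in monocyte-like nuclei, and Cxcr5, Ccr6 and Ccr7 in B cell-like nuclei. Where at least 3 UMIs were required in the class in each library, an alternative added after seeing the data, Ccr1, Ccr7, Cxcr4 and Xcr1 lost their leading class. Without the nuclei of the highest 8% of doublet scores Ccr6 and Xcr1 lost it, leaving 9. With all deposited barcodes Cxcr4 and Xcr1 lost it, while Ccl3, Ccl4, Ccl6 and Ccl9 led in macrophage-like and Ccr9 in dendritic-like nuclei, 14 in all. When nuclei were assigned by markers without clustering, 6 members had a leading class, and none of the members named here led in the same class as before. The share of all genes with a leading class was not computed for these alternatives.

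**Figure D2:**
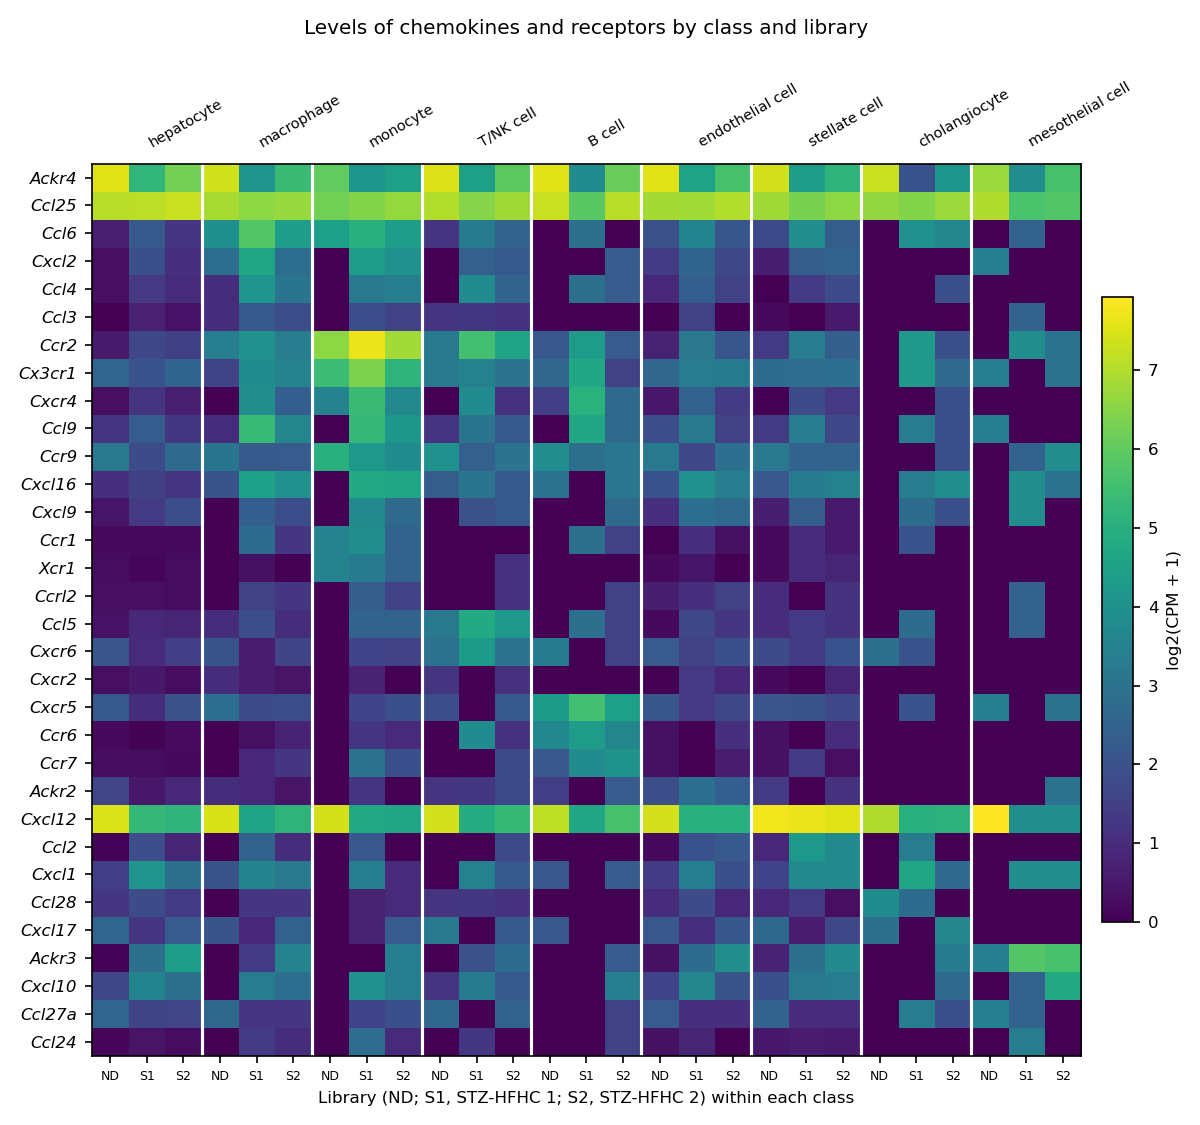
Level of the members reported here with at least 50 UMIs, as log2(CPM + 1) in color, in 9 classes and 3 libraries (ND, S1 for STZ-HFHC 1, S2 for STZ-HFHC 2). Cxcl12, Ackr4 and Ccl25 are bright in all classes of ND, and Ccr2 is brightest in monocyte-like nuclei.

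Class by class, 33 of 81 pairs of a class and a member with at least 50 UMIs there were higher, against 10.0% of all pairs of a class and a gene, and 15 were lower, against 5.69%. Stellate-like nuclei had 6 of 12 members higher (among them Ackr3, Ccl2, Cxcl1, Cxcl10 and Cxcl16), against 11.2% of genes, and 1 lower (Ackr4), against 8.45%. Endothelial-like nuclei had 3 of 11 higher (among them Ackr3 and Cxcl16), against 7.94%, and T or NK cell-like nuclei 2 of 5 (Ccr2 among them), against 9.4%. Monocyte-like nuclei had 2 of 10 higher (Cxcl16 and Ccl9, both at 0 UMIs in 42 ND nuclei, so that the calls rest on the 0.5 added to each count), against 11.6%, and B cell-like nuclei 0 of 3, against 6.25%. In each of these 4 classes Cxcl12 and Ackr4 were the 2 lower members, where 5.27%, 4.45%, 7.32% and 4.29% of genes were lower. In cholangiocyte-like nuclei the single member tested, Ccl25, was not called, where 9.13% of genes were higher and 4.77% lower, and in mesothelial-like nuclei no member had 50 UMIs, where 7.51% of genes were higher and 4.57% lower.

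Cxcl12 (ENSMUSG00000061353, chr6:117168535-117181367, plus strand) holds and attracts Cxcr4-bearing cells. It was lower in STZ-HFHC, with 7500, 1965 and 2494 UMIs, or 176, 44.3 and 44.8 CPM. The ratios to ND were 0.252 (0.240 to 0.265) and 0.255 (0.244 to 0.267), so the 2 STZ-HFHC libraries differed by less than their counting error. Hepatocyte-like nuclei had 179, 37.5 and 34.4 CPM, and endothelial-like nuclei had 165, 31.8 and 30.4 CPM. Stellate-like nuclei had 217, 204 and 183 CPM, a level that differed little between the libraries.

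Within the stellate-like class, however, ND nuclei lay mostly in another cluster than the STZ-HFHC nuclei. In the cluster that held nuclei of all 3 libraries, Cxcl12 stood at 558 CPM (482 to 641) in 144 ND nuclei, against 204 (184 to 225) in 632 nuclei and 183 (170 to 197) in 1312 nuclei of STZ-HFHC, so that ND was 2.74-fold and 3.04-fold above them. In the cluster with 1047 ND nuclei the level was 199 CPM, 1.16-fold that of all other ND nuclei. In the STZ-HFHC libraries the shared cluster stood 5.51-fold and 5.37-fold over all other nuclei. After thinning to 1000 UMIs, 23.4%, 21.7% and 15.4% of stellate-like nuclei had a Cxcl12 UMI, and 16.2%, 3.41% and 3.63% of hepatocyte-like nuclei did, against 49.8%, 24.4% and 20.4% of hepatocyte-like and 61.0%, 39.9% and 32.5% of stellate-like nuclei without thinning. The edgeR test called Cxcl12 lower in 6 classes, with a log2 change of -2.43 in hepatocyte-like and -2.52 in endothelial-like nuclei. These classes came from the same 3 libraries with 1 ND mouse, so the calls are not independent. In ND the level was 175 CPM in macrophage-like, 169 in monocyte-like, 167 in T or NK cell-like and 144 in B cell-like nuclei. That is near the hepatocyte-like 179 CPM, and the part of hepatocyte RNA in these calls was not tested.

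**Figure D3:**
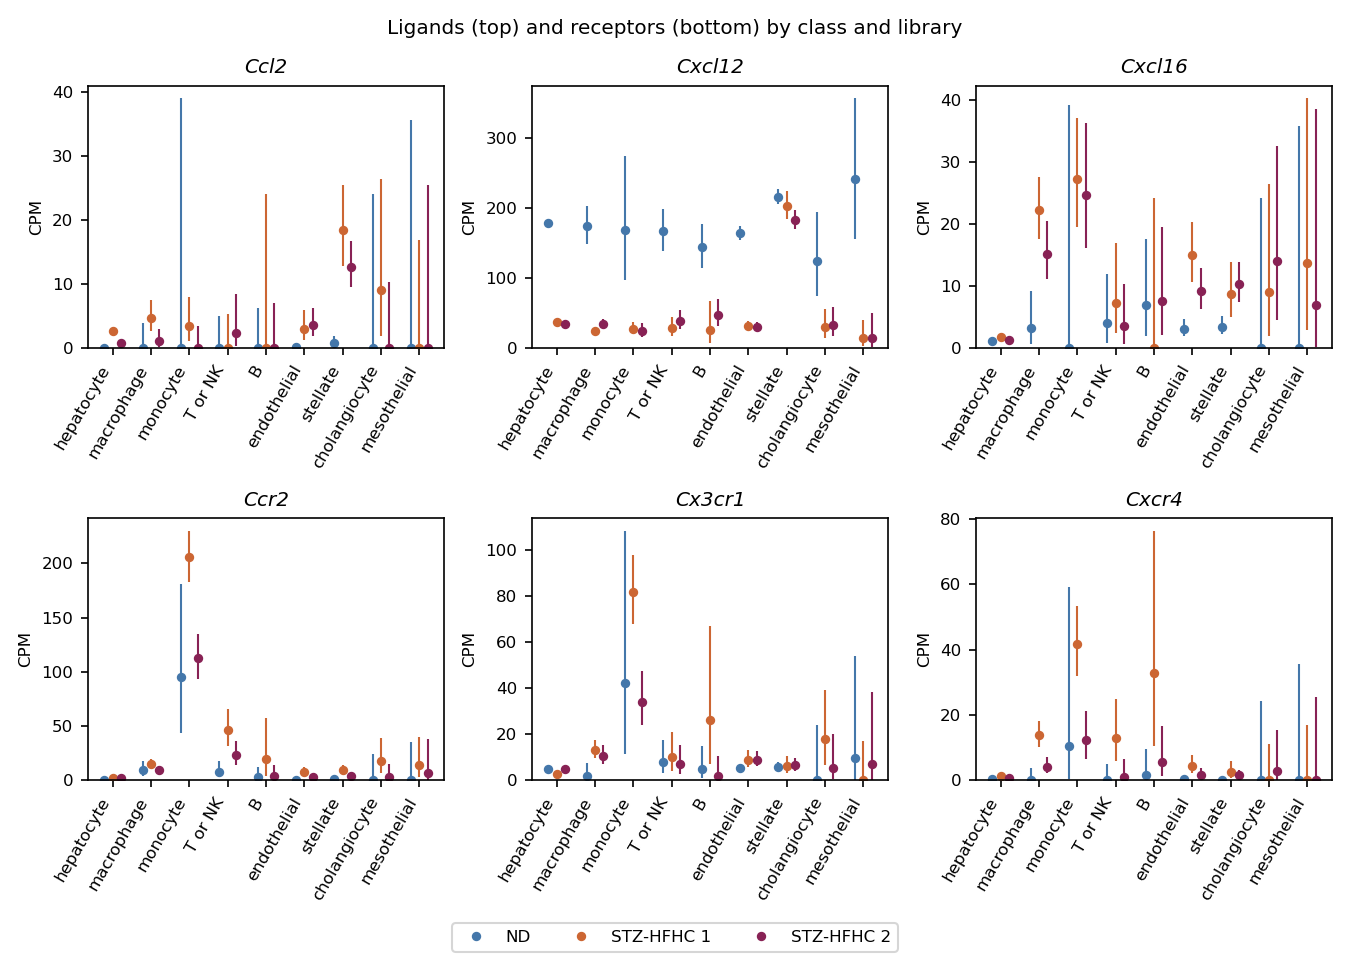
CPM of 3 ligands (top) and 3 receptors (bottom) in 9 classes, with 95% counting intervals as lines and the 3 libraries in color. Ccl2 of the STZ-HFHC libraries peaks in stellate-like nuclei, Cxcl12 is near 200 CPM in that class in every library and below 50 CPM in the other classes of STZ-HFHC, and Ccr2 peaks in monocyte-like nuclei.

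The hepatocyte-like class differed in makeup between the conditions. A cluster with 661 ND nuclei, led by genes such as Slc1a2, Lgr5 and Glul, stayed unnamed because it had too few raised markers. An STZ-HFHC cluster also led by these genes, with 349 and 590 nuclei, was counted as hepatocyte-like. The part of this difference in the ratios of the class was not tested. Hepatocyte-like nuclei had 12 of 25 tested members higher, against 9.27% of all genes in that class, and 4 lower, against 4.74%. The higher ones included the ligands Cxcl1, Cxcl2, Cxcl9, Cxcl10, Ccl2, Ccl4, Ccl5 and Ccl6 and the receptors Ccr2, Cxcr4 and Ackr3. The lower ones were Cxcl12, Ackr4, Ackr2 and Ccl27a. The edgeR test in this class called only Cxcl12. Marker genes of leukocytes moved in the same nuclei. The 8 monocyte markers summed to 1.95, 10.8 and 7.98 CPM in hepatocyte-like nuclei, and 4 of the 4 with at least 50 UMIs were higher. The 18 macrophage markers summed to 69.4, 139 and 113 CPM, and 6 of 18 were higher, as were 2 of 2 tested neutrophil markers (with Ly6g at 0 in every library), 1 of 6 T or NK cell markers and 0 of 4 B cell markers. Leukocyte genes such as Itgam, at 0.210, 1.09 and 0.990 CPM, and Coro1a, at 0.526, 2.78 and 1.25 CPM, were called higher there too. The part of leukocyte RNA in the hepatocyte-like values of the ligands and receptors was not tested.

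Cxcl1, a neutrophil attractant, had 34, 444 and 231 UMIs in hepatocyte-like nuclei, that is 1.79, 16.7 and 6.54 CPM. These UMIs were spread over 29, 235 and 160 nuclei. STZ-HFHC 1 was 9.34-fold (6.58 to 13.7) and STZ-HFHC 2 3.65-fold (2.54 to 5.41) above ND. Stellate-like nuclei showed 1.99, 12.8 and 12.8 CPM, with 6.42-fold and 6.401-fold. Cxcl2, a ligand of the same receptor Cxcr2, stood at 6.31, 24.1 and 6.22 CPM in macrophage-like and at 0, 19.7 and 15.2 CPM in monocyte-like nuclei. Its sums over all nuclei were 34, 294 and 135 UMIs, 8.33-fold and 3.05-fold. Cxcr2, the receptor of neutrophils, had 8, 28 and 24 UMIs in all, and no cluster was named neutrophil-like.

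Cxcl10 and Cxcl9 are induced by interferon and attract Cxcr3-bearing T cells. Over all nuclei Cxcl10 had 83, 472 and 378 UMIs, 5.48-fold and 3.497-fold, and Cxcl9 had 25, 173 and 163, 6.66-fold and 5.01-fold. A small hepatocyte-like cluster led by interferon-stimulated genes (Rsad2, Ifit1, Isg15) held 28, 22 and 42 nuclei. In it Cxcl10 stood at 198 (137 to 277), 670 (556 to 800) and 382 CPM (317 to 456), from 34, 121 and 122 UMIs in 13, 12 and 23 nuclei. Up to 58 of the STZ-HFHC 1 and 27 of the STZ-HFHC 2 Cxcl10 UMIs came from 1 nucleus. In the main ND hepatocyte-like cluster Cxcl10 stood at 0.425 CPM and in the 3 main STZ-HFHC clusters at 1.69 to 7.13 CPM. Cxcl9 in the interferon cluster had 0, 6 and 59 UMIs, and 50 of the 59 came from a single nucleus, so this value rests on that nucleus. The Cxcl9 count of all hepatocyte-like nuclei was 7, 41 and 97, with that nucleus included. Members were not used for clustering.

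**Figure D4:**
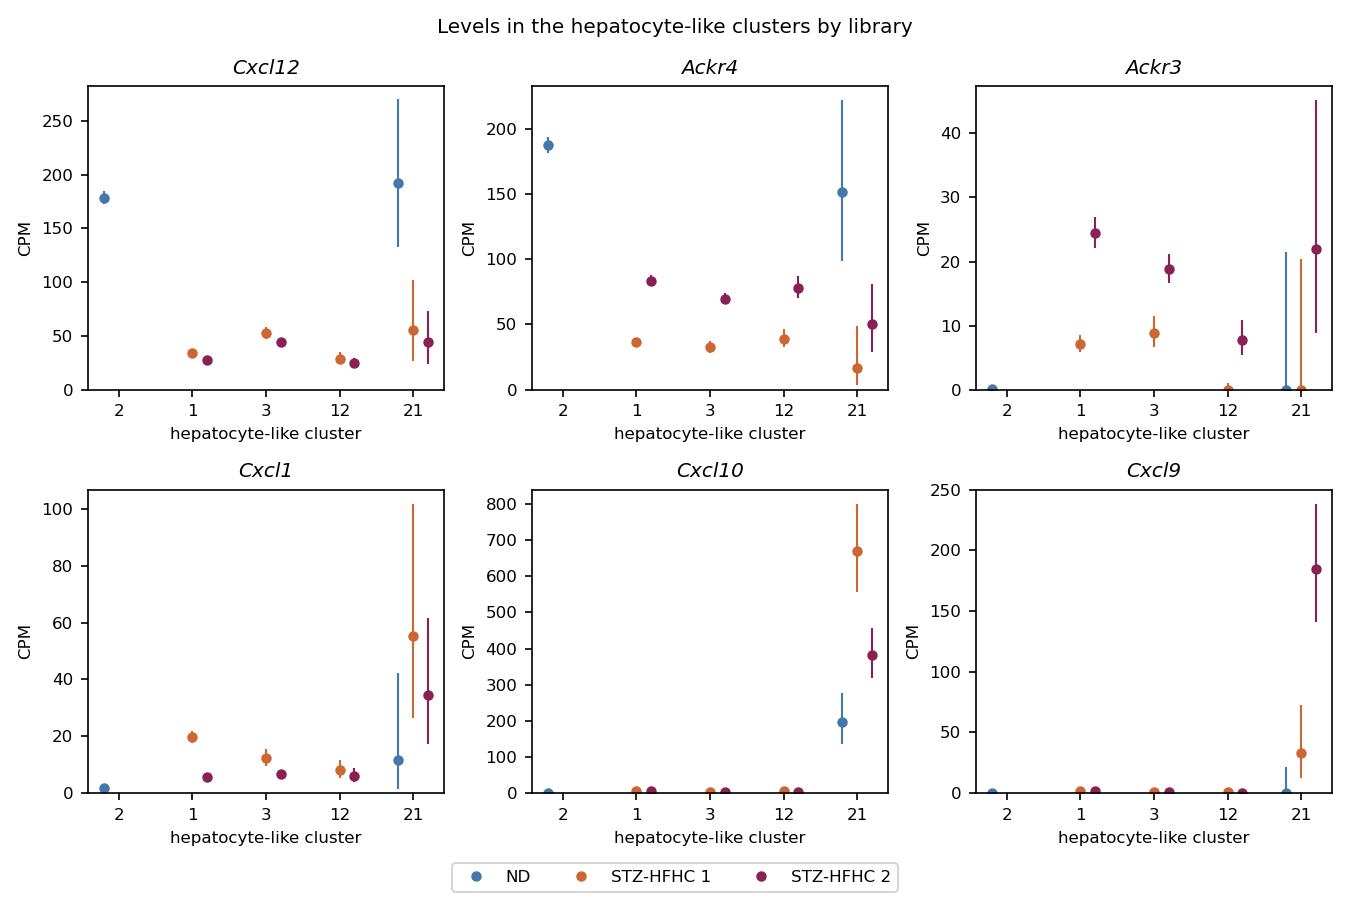
CPM of 6 members in the 5 hepatocyte-like clusters (cluster numbers on the x axis) by library, with 95% counting intervals as lines. Cluster 2 holds nearly only ND nuclei, clusters 1, 3 and 12 nearly only STZ-HFHC nuclei and cluster 21 nuclei of all 3 libraries. Cxcl10 is highest in cluster 21 in every library and Ackr3 is near 0 in cluster 2.

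Macrophage-like nuclei had 8 of 14 tested members higher (13.9% of all genes in that class) and 2 lower (5.2%), the latter Cxcl12 and Ackr4. Of the 8, Cxcl10 and Cxcr4 had 0 UMIs in ND and were not called when a count of 0 was set to 3 counts, an alternative added after seeing the data that left 6. ND contributed 240 macrophage-like nuclei with 950217 UMIs, so each low ND value there rests on few counts. Ccl6 and Ccl9 are ligands of Ccr1. Ccl6 had 14, 198 and 59 UMIs in this class and Ccl9 had 1, 145 and 32. Ccl9 thus stood at 1.05, 40.2 and 11.1 CPM and was called, whereas Ccl6 at 14.7, 54.9 and 20.4 CPM was not. Over all nuclei the order was the other way, with Ccl6 higher by 7.05-fold and 2.20-fold and Ccl9 by 6.04-fold and 1.62-fold, the last below 2-fold.

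Ccl4, which like Ccl3 attracts monocytes and T cells, had a macrophage-like sum of 1, 59 and 21 UMIs. Over all nuclei it had 15, 207 and 124 UMIs, 13.3-fold (7.87 to 24.2) and 6.35-fold (3.70 to 11.7). Ccl3 had 4, 60 and 33 UMIs in all, 14.4-fold and 6.33-fold. Cxcl16, which attracts Cxcr6-bearing lymphocytes, stood at 3.16, 22.2 and 15.2 CPM in macrophage-like nuclei, and at 3.02, 14.96 and 9.19 CPM in endothelial-like nuclei. In monocyte-like nuclei it had 0, 40 and 26 UMIs, but with 94446 ND UMIs in that class a count of 3 would be 31.8 CPM, so no difference was detectable there at this depth. Ccl9 in monocyte-like nuclei had 0, 56 and 18 UMIs, and its 38.1 and 17.1 CPM in STZ-HFHC lay within the ND counting interval, which reached 39.1 CPM. Ccl24, an eosinophil attractant that binds Ccr3, was rare, with 7, 36 and 21 UMIs over all nuclei.

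Ccr2 (chr9:124101950-124113557, plus strand), the receptor through which Ccl2 draws monocytes from the blood, had 59, 610 and 348 UMIs over all nuclei, 9.96-fold (7.61 to 13.2) and 4.53-fold (3.43 to 6.07). Its level in monocyte-like nuclei was 95.3 (43.6 to 181), 206 (183 to 230) and 113 CPM (93.7 to 135), from 9, 302 and 119 UMIs. The ND interval overlapped that of STZ-HFHC 2 and its upper end lay just under the lower end of STZ-HFHC 1. The sum over all nuclei moved with the number of monocyte-like nuclei, 42, 681 and 490, and with makeup held constant the ratios of Ccr2 were 3.58-fold and 2.15-fold. After thinning, 9.09%, 15.4% and 9.67% of monocyte-like nuclei had a Ccr2 UMI, against 0.0802%, 0.164% and 0.209% of hepatocyte-like nuclei. Without thinning, which left out 9, 82 and 66 monocyte-like nuclei, the Ccr2 shares were 14.3%, 26.1% and 17.6%, against 0.23%, 1.80% and 1.26%. T or NK cell-like nuclei stood at 8.15, 46.5 and 23.5 CPM of Ccr2. The monocyte-like cluster also carried dendritic cell genes such as Flt3, so the name does not separate the cell types. With Leiden resolution 0.5 in place of 1, Ccr2 led in macrophage-like nuclei.

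Cx3cr1, the receptor of the membrane-bound ligand Cx3cl1 on patrolling monocytes, had 42.4 (11.5 to 108), 81.7 (67.7 to 97.7) and 34.2 CPM (24.0 to 47.4) in monocyte-like nuclei. Over all nuclei it had 219, 393 and 370 UMIs and was not called, at 1.73-fold and 1.30-fold. In macrophage-like nuclei it was called, with 2, 47 and 31 UMIs. The gene overlaps other genes on both strands, among them Gorasp1, Csrnp1 and Xirp1 on its own strand, so some of its counts cannot be assigned to it with certainty.

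Cxcr4, the signaling receptor of Cxcl12, had 12, 235 and 87 UMIs over all nuclei, 18.9-fold (10.6 to 37.0) and 5.57-fold (3.03 to 11.2). The monocyte-like level was 10.6, 41.5 and 12.4 CPM, the first from 1 UMI. Its ligand Cxcl12 was lower in the same libraries. In macrophage-like nuclei Cxcr4 had 0, 50 and 12 UMIs, at least 4.39-fold and 1.31-fold higher than the level of 3 counts in ND. Ccr1, a receptor of Ccl3, Ccl5, Ccl6 and Ccl9, had 5, 63 and 24 UMIs in all, of which 1, 20 and 5 lay in monocyte-like nuclei. Xcr1, which marks cross-presenting dendritic cells, had 10, 23 and 18 UMIs in all and 1, 13 and 5 in monocyte-like nuclei, and was not called.

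Among lymphocytes, Ccl5 led in T or NK cell-like nuclei at 8.15, 27.6 and 17.7 CPM, and over all nuclei it was higher by 4.82-fold (3.03 to 7.997) and 2.79-fold (1.72 to 4.70). Cxcr6, the receptor of Cxcl16 on liver-resident T and NKT cells, stood at 6.79, 18.9 and 7.07 CPM there, from 5, 13 and 6 UMIs, and its intervals overlapped. Over all nuclei Cxcr6 had 162, 71 and 116 UMIs and was not called, and Fyco1 overlaps it by 5286 bases on the opposite strand. B cell-like nuclei held the lead for Cxcr5, which guides B cells into follicles, with 11, 7 and 11 UMIs. Ccr6 had 7, 3 and 6 UMIs in this class, and Ccr7, which guides lymphocytes and dendritic cells to lymph nodes, had 2, 2 and 8. Over all nuclei Ccr7 was called higher, with 11, 30 and 43 UMIs, while Cxcr5, with 155, 69 and 172, and Ccr6, with 14, 22 and 33, were not.

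Ccr9, the receptor of Ccl25, had no leading class, but stood out in a cluster left unnamed because it carried markers of more than 1 class. That cluster was led by Siglech, a gene of plasmacytoid dendritic cells. Ccr9 stood there at 79.1 (29.0 to 172), 97.2 (60.2 to 149) and 135 CPM (102 to 174), from 6, 21 and 58 UMIs in 24, 85 and 151 nuclei, and these intervals overlapped. Over all nuclei Ccr9 had 336, 180 and 369 UMIs and was not called. With Leiden resolution 2 a class named dendritic-like appeared, which led for Ccr9 and Xcr1. Ccl25, the ligand of Ccr9, was the most abundant member, with 5548, 5328 and 7489 UMIs, or 130, 120 and 135 CPM. The ratios of Ccl25 to ND were 0.925 (0.891 to 0.961) and 1.04 (1.00 to 1.07). In ND its level was 135 CPM in hepatocyte-like nuclei and between 74.1 and 151 CPM in the other classes, and in STZ-HFHC it was highest in hepatocyte-like nuclei, at 139 and 151 CPM.

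Among the atypical receptors, Ackr3 was higher and Ackr4 lower over all nuclei. Ackr3 (chr1:90203980-90216751, plus strand), which takes up Cxcl12, showed the largest ratios among the 33 tested members, with 11, 246 and 946 UMIs, 21.5-fold (11.8 to 43.7) and 66.0-fold (36.7 to 133). Hepatocyte-like nuclei held 1, 175 and 709 of these UMIs, in 1, 82 and 367 nuclei, which came to 0.0526, 6.58 and 20.1 CPM. The 2 STZ-HFHC libraries therefore differed from each other by more than their counting intervals. In the STZ-HFHC libraries the 2 largest hepatocyte-like clusters had 7.13 to 24.4 CPM, and the cluster led by Slc1a2, Lgr5 and Glul, genes of hepatocytes around the central vein, stood at 0 and 7.79 CPM, the 0 from 349 nuclei. Thinned to 1000 UMIs, 0%, 0.59% and 1.69% of hepatocyte-like nuclei had an Ackr3 UMI, the 0 allowing a share of up to 0.0802%, and 0.0255%, 2.59% and 7.43% without thinning. The highest CPM was in mesothelial-like nuclei, at 9.68, 55.0 and 48.4 from 1, 12 and 7 UMIs. Endothelial-like and stellate-like nuclei were also higher, with levels of 0.288, 5.98 and 13.9 CPM and of 0.712, 6.65 and 12.3 CPM.

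Ackr4, which takes up Ccl19, Ccl21 and Ccl25, was lower, with 7635, 1256 and 3567 UMIs, or 179, 28.3 and 64.1 CPM. The ratios were 0.158 (0.149 to 0.168) and 0.359 (0.345 to 0.373), so the STZ-HFHC libraries again differed from each other beyond counting error. It was lower in 7 classes, and its ND level ranged from 63.5 CPM in monocyte-like to 188 CPM in B cell-like nuclei. Ackr4 lies wholly within Acad11, a gene on the opposite strand with 450, 339 and 290 CPM, and how strand was used in counting was not given in the sources used here. Ackr2, which scavenges inflammatory CC chemokines, had 92, 67 and 87 UMIs and was not called over all nuclei, but was lower in hepatocyte-like nuclei, at 2.16, 0.414 and 0.877 CPM. In endothelial-like nuclei Ackr2 stood at 2.73, 6.36 and 4.18 CPM. Ccrl2 had 19, 34 and 38 UMIs.

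Of the remaining ligands, Ccl27a, which attracts Ccr10-bearing T cells, was lower with 204, 89 and 111 UMIs, 0.420 and 0.418 of the ND level. Cxcl17 had 199, 47 and 208 UMIs, 0.228 and 0.803 of the ND level, and lies opposite the more abundant antisense gene 4732471J01Rik. Ccl28 had 47, 100 and 74 UMIs and was not called. Across the 33 members, 12 overlapped a gene on the opposite strand, 2 a gene on their own strand, and 21 none.

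A further 24 identifiers had 1 to 49 UMIs over all libraries and were not tested. The largest of them was Ccl7, a second ligand of Ccr2 in the same chromosomal group as Ccl2, with 2, 28 and 17 UMIs. Ccl22 and Cxcl5 had 0 ND UMIs, with 17 and 13 and with 16 and 8 in the STZ-HFHC libraries, at least 5.46-fold and 3.33-fold and at least 5.14-fold and 2.05-fold above the level of 3 counts. Cxcr3, the receptor of Cxcl9 and Cxcl10, had 5, 9 and 16 UMIs. No UMI was counted for 10 identifiers, most of them further copies of Ccl19, Ccl21 and Ccl27, whose near-identical copies the counting could not separate with certainty.

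Some ligands and receptors that bind each other had their highest levels in different classes of the STZ-HFHC nuclei, and others in the same class. Ccl2 was highest in stellate-like and Ccr2 in monocyte-like nuclei in all 3 libraries. Ccl5 was highest in T or NK cell-like and its receptor Ccr1 in monocyte-like nuclei. Cxcl12 was highest in stellate-like nuclei of both STZ-HFHC libraries, Cxcr4 in monocyte-like and Ackr3 in mesothelial-like nuclei. Cxcl16 was highest in monocyte-like and Cxcr6 in T or NK cell-like nuclei of both STZ-HFHC libraries. By contrast, Ccl25 and Ackr4 were both highest in hepatocyte-like nuclei of both STZ-HFHC libraries. Ccl6, Ccl9 and their receptor Ccr1 were all highest in monocyte-like nuclei of STZ-HFHC 2. In STZ-HFHC 1, however, Ccl6 and Ccl9 were highest in macrophage-like nuclei, at 54.9 and 40.2 CPM, and Ccr1 in monocyte-like nuclei. These are levels of RNA in nuclei, and no contact between cells was measured.

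In other genes of chemotaxis the same direction prevailed. Of 24 genes that signal below chemokine receptors, 14 were higher and none lower over all nuclei, against 13.6% and 4.74% of all genes, with a median log2 ratio of 1.63. Among them were Dock2, a Rac activator of migrating leukocytes, at 42.8, 368 and 161 CPM, and Pik3r5, the regulatory subunit of the kinase PI3K gamma, at 3.25, 31.6 and 17.8 CPM. Of 13 tested genes of leukocyte adhesion, 8 were higher, among them Itgam, Itgax and Itgb2, the integrins of myeloid cells, and Vcam1, a ligand of Itga4, at 8.97, 33.7 and 24.7 CPM. Of 8 tested genes of chemoattractants outside the family and their receptors, 4 were higher, all of them receptors (Cd74, Cmklr1, C5ar1 and Fpr2). The ligands Mif, at 1.32-fold and 0.876-fold, and Rarres2, at 0.757-fold and 0.572-fold, were not called. Of 10 genes that induce or process chemokines only Tnf was higher, with 8, 176 and 70 UMIs, whereas Il1b was lower in 4 classes, at 80.0, 17.2 and 13.1 CPM in macrophage-like nuclei.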

How the data were processed

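Frozen liver nuclei of 1 ND and 2 STZ-HFHC mice were profiled with 10x single-nuclei RNA sequencing. The authors deposited 1 matrix of UMI counts per library, made with Cell Ranger 7.0.1, and the submitters' processing notes name mm10. Whether introns were counted and how strand was used is not given in the sources used here. The label codes of the 3 libraries are not explained, so a batch cannot be told apart from the condition.

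The matrices held 30989 barcodes. The filter stated in the study's methods (at least 200 and at most 5000 genes, at most 5% mitochondrial counts) left 28336 nuclei, although 30989 is the number given there for nuclei after filtering. Limits removed 2415 barcodes for genes and 238 for mitochondrial counts. Counts were scaled to 10000 per nucleus, log-transformed and reduced to 30 principal components of 2000 variable genes without the members (scanpy 1.11.5), then clustered with 15 neighbors by Leiden at resolution 1. No batch correction was applied. Clusters were named from marker lists. A list names a cluster where at least 3 of its genes, and 33.3% of the list, are raised 2-fold. Clusters with raised markers of a second list, mitochondrial genes on top or too few markers stayed unnamed. This naming rule was revised after clusters were seen. Scrublet's automatic threshold marked 1 nucleus in all, so it did not work here and doublets were kept. Removing the highest 8% of scores was an alternative.

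UMIs were summed per library and class and given as CPM, with exact Poisson intervals for levels and exact conditional binomial intervals for ratios (95%). For the calls of the rule of size, 0.5 was added to each count, also to a count of 0. A fold printed against a count of 0 is a lower bound at the level of 3 counts, and calling at that level was an alternative added after seeing the data. Depth was 42715797 to 55632923 UMIs per library. The members given with values are the 30 with the most UMIs, those called over all nuclei or in a class, and Ccl2 and Ccr2. Xcr1, Ccl7, Ccl22, Cxcl5 and Cxcr3 fall outside this rule and were named after their values were seen. A result on 1 member is not reported here, though the counts of members include it. Genes of the 4 pathway lists are named where called. The members and all lists were chosen with earlier results of these data known. edgeR 4.0.16 (quasi-likelihood, Benjamini-Hochberg over all genes with at least 50 UMIs in R 4.3.3) was an alternative with 1 residual degree of freedom, as was scaling by TMM or DESeq2 1.42.0 size factors. Both the rule and edgeR were tested on simulated data. In these the rule recovered 29.5% of genes changed 2-fold and 95% of those changed 4-fold. It also called 81 and 87 unchanged genes higher, where 200 of 16829 genes were changed. The spread between libraries was assumed in the simulation, so these values need not hold for the real libraries. Positions and overlaps were taken from GENCODE M21 (GRCm38) and promoters from RefSeq (GRCm38.p6).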

Additional observations from a re-analysis of the deposited data

Results flagged for a closer look

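In 3 members the change between ND and STZ-HFHC differed between stellate-like and hepatocyte-like nuclei. This was tested after seeing Cxcl12 in both classes, with edgeR on the class sums, the library as a block and a term for class by condition, and 1856 of 15421 genes and 3 of 25 members were called at an adjusted p under 0.05. The share of members called was that of all genes, so the count is not a result about the members. With 1 ND library the test compares these libraries, and it has 1 residual degree of freedom. For Cxcl12 the log2 change was 2.36 higher in stellate-like than in hepatocyte-like nuclei (adjusted p = 7.1e-36, edgeR). The ND stellate-like nuclei of Cxcl12 lay mostly in another cluster than those of STZ-HFHC, and in the shared cluster ND was 2.74-fold and 3.04-fold above the STZ-HFHC libraries. The hepatocyte markers summed to 15958, 7079 and 8988 CPM in stellate-like nuclei and to 19482, 14572 and 15637 CPM in hepatocyte-like nuclei. In ND, Ackr4 stood at 164 CPM in stellate-like and 187 CPM in hepatocyte-like nuclei. How far hepatocyte RNA enters the Ackr4 difference between the classes was not tested. For Ackr4 the log2 change was -0.66, that is, the fall was larger in stellate-like nuclei. For Ackr3 it was -3.87 (adjusted p = 0.0203, edgeR), a value that rests on 1 Ackr3 UMI in hepatocyte-like nuclei of ND.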

How the results depend on the processing

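No paired analysis was possible because each library came from a different mouse. The main counts were 18 members higher, 3 lower and 11 with a leading class, and 33 class and member pairs higher and 15 lower. Except for edgeR and for a count of 0 set to 3 counts, the share of all genes called was not computed under the alternatives. Their counts therefore show how the calls move with the setting, and not how the members stand against all genes. With at least 20 UMIs, 26 pairs were lower. With at least 1 UMI, 31 members and 113 pairs were higher and 47 pairs lower. At that limit a count of 0 in ND can pass 2-fold against few UMIs, because 0.5 is added to each count. At 4-fold, 8 members were higher and 0 lower, 15 pairs were higher and 6 lower, and at 8-fold 7 had a leading class. Thinned to 1000 UMIs, 6 had a leading class, and 5 pairs were higher and 7 lower, with fewer UMIs behind each. Leaving out 1 STZ-HFHC library gave 14 to 17 members higher, 3 to 6 lower, 9 to 10 leading, 17 to 23 pairs higher and 13 to 20 lower, the 17 pairs without STZ-HFHC 1 and the 6 lower members without STZ-HFHC 2. Leiden resolution 0.5 gave 11 pairs higher and resolution 2 gave 21. Classes without clustering gave 6 leading, and 21 pairs higher and 6 lower, and at least 3 UMIs in the leading class gave 7. By edgeR 0 members were higher and 0 lower, and 8 pairs were higher. The cause was not tested. TMM and DESeq2 scaling kept 15 of the 18 higher and all 3 lower members, and moved the median log2 ratio of all genes from 0.18 to -0.03 and -0.04. The shift of a recomputed log2 ratio was set against its standard deviation between the 2 STZ-HFHC libraries, which is not a counting error. Of 527 ratios of single members, 477 moved by no more than that and 50 moved by more. None of the called ones changed sign and 11 of those not called did. With a count of 0 set to 3 counts, 29 of the 33 higher pairs stayed called, without Cxcl16 and Ccl9 in monocyte-like and Cxcl10 and Cxcr4 in macrophage-like nuclei.

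ND monocyte-like and mesothelial-like sums held 94446 and 103349 UMIs, so low members could not be detected there. Counting intervals do not cover differences between mice.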

Other observations

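Within macrophage-like nuclei, genes of chemotaxis outside the chemokine family were also counted more often. Of 21 tested genes that signal below chemokine receptors 13 were higher and none lower, and of 9 tested adhesion genes 7 were higher, where 13.9% of all genes in the class were higher. Tnf had 0, 52 and 10 UMIs and Irf1, a transcription factor of the interferon response, 12, 175 and 96. In T or NK cell-like nuclei 8 of 13 signaling genes and 5 of 6 adhesion genes were higher, where 9.4% of all genes were. The ND macrophage-like and T or NK cell-like nuclei numbered 240 and 136. Of the 240, 223 lay in another cluster than nearly all STZ-HFHC macrophage-like nuclei. T or NK cell-like nuclei had median UMI counts of 3779, 1267.5 and 1485.5, and the hepatocyte markers summed to 18143, 10965 and 14318 CPM in them. The part of these differences in the calls of both classes was not tested.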
